A study of Mus musculus with 24 samples.

Results

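The chemokine receptor gene Ccr2 and the genes of 4 of its ligands, Ccl2, Ccl7, Ccl8, and Ccl12, were followed by cell class and by treatment in single-cell RNA-Seq of mouse Panc02 tumors. These 5 genes were picked by symbol out of the 32285 genes measured. They were chosen by their values in earlier work on the same data, above all the higher Ccr2 level in CD8+ T cells after PancVAX, so that difference is described here and was not tested. All 5 members were detected, with 10435 UMIs (unique molecular identifiers, counts of captured transcripts) of Ccr2, 19107 of Ccl2, 22755 of Ccl7, 70396 of Ccl8, and 16576 of Ccl12 in the cells used.

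Panc02 is a mouse pancreatic cancer cell line. It was implanted s.c. in the flanks of WT male C57BL/6 mice aged 6 to 7 weeks, and by the labels tumors were harvested on day 38. PancVAX, a vaccine of peptides holding Panc02 neoantigens, was given s.c. on days 12 and 19, at 50 ug in the labels, an amount the study's methods give for each peptide. By the study's methods it was mixed with the adjuvant AddaVax and a STING agonist, with PBS in its place in the other mice. The labels give repeated doses of 100 ug of anti-PD-1 from day 12 and 100 ug of anti-CTLA-4 on days 15 and 22. The 8 treatments were all combinations of the 3 agents, from Isotype Control to PancVAX + Anti-PD-1 + Anti-CTLA-4. A difference with PancVAX therefore joins the peptides and the adjuvants. Tumors were pooled within a treatment, and each treatment gave 1 library of dissociated whole tumor and 1 of immune cells enriched on Percoll, sequenced as 2 batches, for 16 libraries in all. A pool below is the sum of both libraries of a treatment, so that 4 pools with PancVAX stand against 4 without it. The labels do not say that the libraries of a group came from separate experiments, so P values measure the spread between these pools of mice. Each treatment was 1 pool, and the fits add up the effects of the 3 agents. That spread therefore also holds any change of one agent's effect by another, which cannot be told apart from differences between pools.

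The libraries held 77132398 to 176233225 UMIs each, and 57355 of 144994 barcodes (39.6%) passed the filters of the study. Upper limits on UMIs and genes alone removed 63059 barcodes, which bears on the shares of transcripts given below. Of the barcode sequences, 3.72% occurred in 2 or more libraries. A Percoll library stood apart: with PancVAX + Anti-PD-1, 53.3% of its cells lay in clusters with high Krt8 and Krt18, against 14.8% to 24.9% in the other 7 Percoll libraries. The Percoll library of PancVAX alone held 357 of the 626 endothelial-like cells. Clusters were named "-like" from marker genes unless markers of another class led them or stood out in them, and those left unnamed are called by a leading gene. Some named clusters were mixed. In the one led by Fosl1, named tumor or epithelial-like, Krt8 was found in 76.0% of cells and the leukocyte gene Ptprc in 38.5%.

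CCR2 is a G protein-coupled receptor best known for letting inflammatory monocytes leave the bone marrow and enter inflamed tissue and tumors, where they become macrophages and dendritic cells. It is also carried by subsets of effector and memory T cells, NK cells, and gamma-delta T cells. CCL2, CCL7, CCL8, and CCL12 are secreted monocyte chemoattractant proteins made by activated macrophages, monocytes, and fibroblasts. CCL2 is the ligand most often tied to CCR2, CCL7 also binds other receptors, CCL12 is a mouse ligand with no direct human counterpart, and mouse CCL8 is also a ligand of CCR8.

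The 4 ligand genes lie within 81.2 kb on chromosome 11 of GRCm38.p6, with Ccl11 between Ccl7 and Ccl12, and Ccr2 lies on chromosome 9. Ccl2 spans chr11:82035577-82037452, Ccl7 chr11:82045712-82047525, Ccl12 chr11:82101845-82103399, Ccl8 chr11:82115185-82116799, and Ccr2 chr9:124101918-124109140. Promoters (250 bases before and 50 after the RefSeq start of the gene, GRCm38.p6) were found for Ccr2, Ccl8, and Ccl12. They are shown so that Ccl8 and Ccl12, neighbors made by the same phagocyte classes, can be set beside the receptor. Capitals mark the TATA box TATAAA, and all 3 genes are on the plus strand. The RefSeq start of Ccr2 lies inside the span given above, so its whole window falls within that span. The windows of Ccl8 and Ccl12 reach before their spans.
Ccl8, chr11:82114935-82115234: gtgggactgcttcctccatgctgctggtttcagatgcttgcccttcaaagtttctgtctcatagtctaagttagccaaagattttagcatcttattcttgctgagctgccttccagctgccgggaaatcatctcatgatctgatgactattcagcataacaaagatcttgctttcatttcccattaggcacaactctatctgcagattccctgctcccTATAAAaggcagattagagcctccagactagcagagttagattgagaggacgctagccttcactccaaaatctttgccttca
Ccl12, chr11:82101595-82101894: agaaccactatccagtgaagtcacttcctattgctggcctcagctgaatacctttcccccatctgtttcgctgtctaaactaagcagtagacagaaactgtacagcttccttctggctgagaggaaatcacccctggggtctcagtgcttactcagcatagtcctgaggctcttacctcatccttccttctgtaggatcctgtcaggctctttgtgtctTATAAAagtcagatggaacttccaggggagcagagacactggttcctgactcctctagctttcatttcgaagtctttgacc
Ccr2, chr9:124101933-124102232: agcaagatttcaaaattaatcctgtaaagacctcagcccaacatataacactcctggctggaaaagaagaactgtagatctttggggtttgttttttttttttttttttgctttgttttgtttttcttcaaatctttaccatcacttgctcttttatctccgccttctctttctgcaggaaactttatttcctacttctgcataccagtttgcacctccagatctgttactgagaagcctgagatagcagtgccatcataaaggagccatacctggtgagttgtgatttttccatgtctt
The TATA box began 32 bases before the start of Ccl8 and 31 before that of Ccl12, and was not found in the Ccr2 window. Sequence before the Ccr2 span given above was not searched, as that window lies within the span. TATAAA occurred, on either strand, in 13.6% of the 32817 promoters of the table. The other motifs searched on both strands had no match in these 3 windows: GAS (TTCNNNGAA), AP-1 (TGANTCA), C/EBP (TTGCNNAA), RUNX (TGTGGT), ISRE, and NF-kappaB, found in 8.29%, 7.81%, 10.8%, 16.8%, 3.43%, and 20.7% of all promoters.

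The question of where the receptor and its ligands were made was answered by levels in CPM, the UMIs of a gene scaled to the total UMIs of a class in a pool. Ccr2 was highest in monocyte-like cells (led by Chil3, F13a1, and Arg1), at 444 ± 61.1 CPM (SD, n = 8 pools, 379 to 558), and 65.5% of these cells had at least 1 UMI (95% exact binomial interval 63.3% to 67.7%, counting error only). NK-like cells followed at 208 ± 72.7 CPM, gamma-delta T-like cells at 197 ± 45.7, regulatory T-like cells at 159 ± 63.6, and plasmacytoid dendritic-like cells at 129 ± 72.3. The ranges of these 4 classes overlapped, while the lowest monocyte-like pool lay above the highest pool of each. CD4 T cell-like cells had 75.8 ± 46.4 CPM, CD8 T cell-like cells 50.0 ± 43.3, dendritic cells 42.2 ± 18.7, and macrophage-like cells 30.03 ± 7.78. Among dendritic cells the level was 72.3 CPM in the Cd209a cluster, of type 2 conventional dendritic-like cells, and 3.22 CPM in the Clec9a cluster, of type 1 cells. Neutrophil-like and B cell-like cells, which are not known for the receptor, had 2.18 and 6.80 CPM with PancVAX and 2.29 and 1.21 CPM without it. The parts of free RNA, doublets, and expression in these low values were not tested. The monocyte-like cluster also held macrophage markers, with C1qa in 61.6% of its cells and Ly6c2 in 30.3%. All 19 macrophage markers had a UMI there in every pool. They summed to 14339 to 21837 CPM with PancVAX and 16486 to 21448 without. Their part in the receptor and ligand levels of this class was not tested.

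The ligands were found mainly in phagocytes, and Ccl2, Ccl7, and, at a lower level, Ccl8 also in fibroblast-like cells. Ccl2 reached 647 ± 157 CPM in monocyte-like cells, 406 ± 112 in fibroblast-like cells, 305 ± 115 in a phagocyte cluster led by Ifit3 (an interferon-induced gene), and 204 ± 63.1 in macrophage-like cells (n = 8 pools each). Ccl7 had the same order, at 609 ± 237, 442 ± 196, 406 ± 289, and 267 ± 137 CPM. For both genes the ranges of neighbors in this order overlapped. The order is that within the upper limits on UMIs and genes. With no upper limits 807 fibroblast-like cells held 10182 UMIs of Ccl2 and 11023 of Ccl7. The 2043 monocyte-like cells then held 8046 and 8497, and the CPM levels there are not given here. Ccl8 was highest in macrophage-like cells, at 1139 ± 380 CPM, with the Ifit3 cluster at 1094 ± 562, monocyte-like cells at 692 ± 285, and fibroblast-like cells at 127 ± 76.8. Ccl12 was highest in the Ifit3 cluster, at 962 ± 263 CPM (559 to 1179), above every macrophage-like pool (192 to 352) and every monocyte-like pool (85.1 to 268). Outside these phagocyte classes the highest mean of Ccl12 was 10.8 CPM, in tumor or epithelial-like cells, and fibroblast-like cells had 9.27 CPM. The Ifit3 cluster had only 283 cells.

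**Figure D1:**
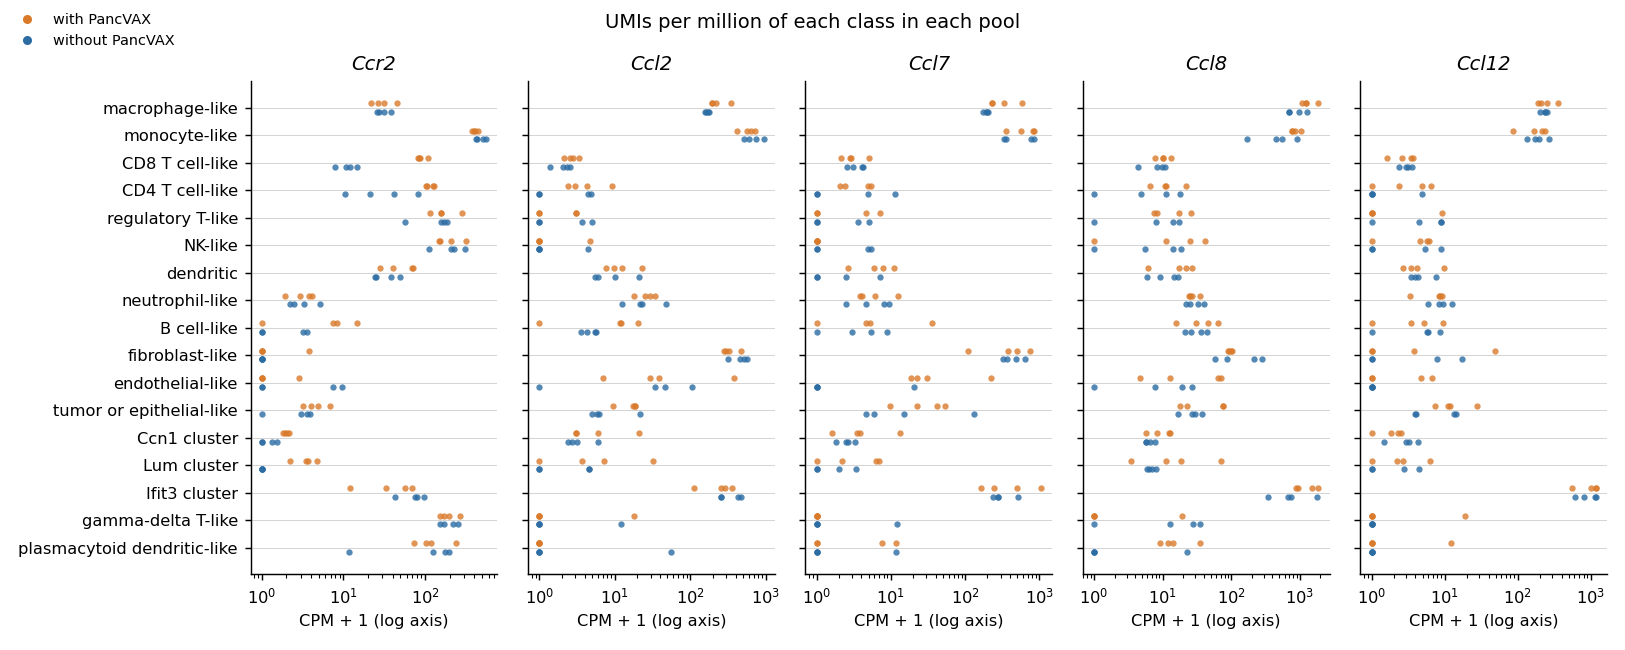
Each point is 1 pool, plotted as CPM plus 1 on a log axis, with PancVAX in orange and without it in blue (pools with 10 or more cells). Ccr2 was highest in monocyte-like cells and separates by PancVAX in CD8 T cell-like cells, and the ligands stand out in phagocyte rows, with Ccl2 and Ccl7 also high in fibroblast-like cells.

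Macrophage-like cells (11417, 19.9% of the cells used) held 54.0% of Ccl2 UMIs, 59.1% of Ccl7, 82.0% of Ccl8, and 73.9% of Ccl12. Monocyte-like cells, 1786 in number, held 30.2%, 24.5%, 8.80%, and 10.2%, and 37.1% of Ccr2 UMIs. CD8 T cell-like cells held another 23.4% of Ccr2. The 265 fibroblast-like cells held 2.72% of Ccl2 and 2.76% of Ccl7. With no upper limits on UMIs and genes, a check added after the data were seen, these shares changed. That of fibroblast-like cells (then 807) was 17.5% of Ccl2 and 18.8% of Ccl7, that of monocyte-like cells 13.9% and 14.5%, and that of macrophage-like cells 45.7% and 51.8%. Tumor or epithelial-like cells, then 20232, held 9.69% of Ccl2 in place of 1.502%. The share of monocyte-like cells in Ccr2 was 31.5%.

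In monocyte-like cells the ligand transcripts sat in fewer cells than the receptor. Of these cells, 266 together held 50% of the Ccr2 UMIs. For Ccl8 18 cells did, 64 cells for Ccl7, and 93 for Ccl2, and the highest cell had 338 UMIs of Ccl8. Only 15.6% of monocyte-like cells had any Ccl8, against 50.9% of macrophage-like cells, so the Ccl8 level of the monocyte-like class rests on a small number of cells. In macrophage-like cells, the 1% of cells with most UMIs held 30.4% of Ccl2, 36.8% of Ccl7, 21.2% of Ccl8, and 25.7% of Ccl12. They held 40.2% of Ccr2. In this class Ccr2 had 1534 UMIs and each ligand 10319 or more, and the part of this lower count in the share was not tested. Macrophage-like sub-clusters differed as well. A cluster led by Fcrl5 and Hspa1a had 283 CPM of Ccl2 and 356 CPM of Ccl7, a cluster led by Npl and Ccl24 had 126 and 117 CPM, while Ccl8 ran the other way, at 1116 and 1723 CPM.

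Tumor or epithelial-like cells (5586, in clusters led by Gm26917 and Rhox5 and by Fosl1) made little of any ligand. Their means were 11.8 ± 6.83 CPM of Ccl2, 34.7 ± 42.7 of Ccl7, 36.8 ± 24.3 of Ccl8, and 10.8 ± 7.54 of Ccl12, while neutrophil-like cells had 25.6, 5.40, 28.0, and 7.31 CPM. The larger Ccl7 value came from very few cells, as 5 of the 5586 held 50% of its UMIs. Markers of macrophages were also present in this class, all 19 of 19 with a UMI in every pool and 2546 to 4752 CPM in sum, and their part in these ligand levels was not tested. An unnamed Krt8+ cluster led by Ccn1 (7582 cells) had 0.604 CPM of Ccr2. Its ligand means were lower than those of the tumor or epithelial-like class, at 4.89 CPM of Ccl2, 3.05 of Ccl7, 7.11 of Ccl8, and 1.47 of Ccl12.

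Over 138 sums of a class in a pool, the genes whose log2(CPM + 10) followed Ccr2 most closely were Runx3, a transcription factor of lymphocytes (Pearson r = 0.80), Cd48 (0.78), Dok2 (0.78), Pycard (0.73), and Fermt3 (0.73), out of 14459 genes. Ccl2 and Ccl7 were the closest to each other (r = 0.93), and both also followed Cfb (0.90 and 0.90) and Abca9 (0.88 and 0.90). Ccl2 also followed Cd302 (0.88), and Ccl7 followed Ccl8 (0.88). Ccl8 followed the complement genes C1qb (0.92), C1qc (0.91), and C1qa (0.91) and Apoe (0.91). Ccl12 followed Siglec1 (0.95), Gm10134 (0.94), the Fc receptor gene Fcgr1 (0.94), C3ar1 (0.94), and Tfec (0.93). Between Ccr2 and the ligands r was 0.03 to 0.24. These correlations run over classes that share libraries and describe where genes were expressed, and are not tests.

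Ccr2 in CD8 T cell-like cells was the value by which the genes were chosen. In whole-tumor libraries with PancVAX it was 121 CPM for PancVAX alone, 93.9 with Anti-PD-1, 86.2 with Anti-CTLA-4, and 98.9 with both, and in Percoll libraries 98.1, 71.6, 78.6, and 76.8 CPM. Without PancVAX it was 8.16 CPM for Isotype Control, 11.8 with Anti-PD-1, 8.86 with Anti-CTLA-4, and 14.1 with both in whole tumors, and 4.97, 10.4, 10.2, and 13.5 CPM after Percoll. Every library with PancVAX lay above every library without it, in both preparations. The pools had 89.7 ± 12.7 CPM with PancVAX and 10.3 ± 2.86 without (n = 4 each), a fitted log2 difference of 3.01 (SE 0.17), given with no test. It was 3.11 in whole tumors alone and 2.90 after Percoll alone. Of the CD8 T cell-like cells, 22.8% had a Ccr2 UMI with PancVAX and 3.63% without, and after thinning each cell to 1000 UMIs 9.11% and 1.08%, at median depths of 3349 and 4492 UMIs. The same thinned share in B cell-like cells was 0.426% and 0.0566%, at 2133 and 1972.5 UMIs.

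**Figure D2:**
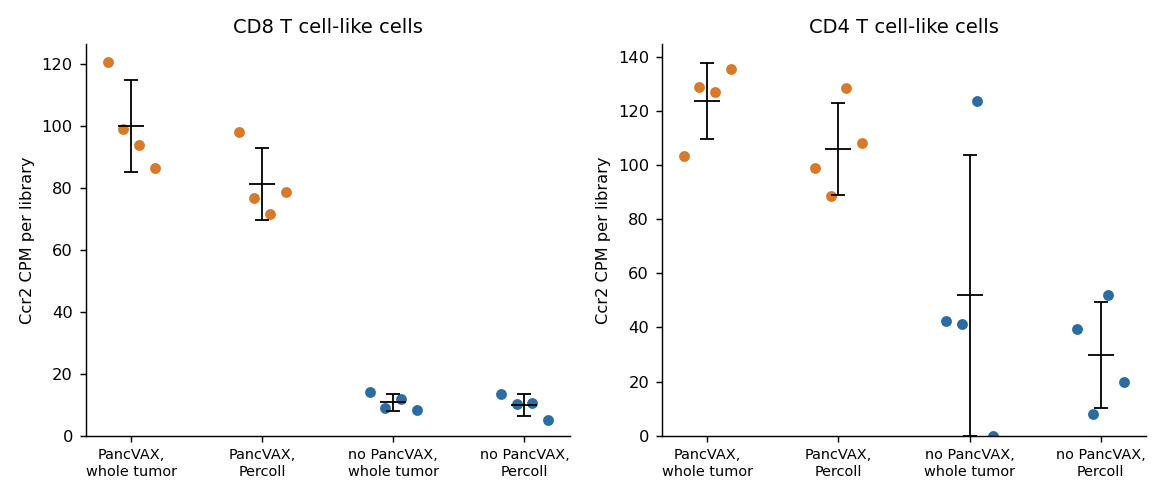
Ccr2 CPM in each library, for CD8 T cell-like cells (left) and CD4 T cell-like cells (right), split by PancVAX and preparation; points are libraries and bars the mean ± SD of 4. In CD8 T cell-like cells the libraries with PancVAX lie at 71.6 to 121 CPM and those without at 4.97 to 14.1, and in CD4 T cell-like cells a whole-tumor library without PancVAX, at 124 CPM, lies among those with it.

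Marker lists of other cells were summed in the same cells. The 19 macrophage markers summed to 244 to 328 CPM in CD8 T cell-like cells with PancVAX and 265 to 315 without, and 17 or more had a UMI in each pool. The 18 monocyte markers summed to 2641 to 2807 CPM with PancVAX and 1164 to 1452 without, and that list holds Ly6c2, which effector CD8+ T cells also express. The part of either list in the Ccr2 level was not tested.

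CD8 T cell-like states differed in Ccr2, and they also differed in their shares. Cytotoxic-like cells, led by Lgals3 and Ccl5, had 149 ± 28.9 CPM with PancVAX and 52.0 ± 16.0 without, and made up 55.4% and 6.31% of CD8 T cell-like cells. Exhausted-like cells, with Tox and the inhibitory receptor gene Lag3 among their leading genes, had 11.1 ± 3.05 and 7.34 ± 3.33 CPM and made up 21.4% and 65.7%. Interferon-signature cells had 116 ± 38.3 and 44.8 ± 20.3 CPM, and naive-like cells 7.38 ± 4.79 and 8.33 ± 3.41. Cycling-like cells had 116 ± 12.3 CPM with PancVAX and 34.2 CPM in the only pool without it that had 10 or more cells, from 2 UMIs over all 4 pools. So the lowest cytotoxic-like pool with PancVAX (125 CPM) lay above the highest without (73.6 CPM), while the ranges of interferon-signature (68.2 to 156 and 29.7 to 72.7 CPM), naive-like, and exhausted-like cells overlapped between the groups. The 72.7 CPM of interferon-signature cells was 3 UMIs in 10 cells (Anti-CTLA-4). Without PancVAX that state held 18 UMIs in 113 cells. Cytotoxic-like cells without PancVAX held 49 Ccr2 UMIs in 268 cells, at 5 to 21 UMIs a pool. Cytotoxic-like cells held 76.1% of the Ccr2 UMIs of CD8 T cell-like cells with PancVAX and 22.6% without. States were clusters of these same cells, so these values are a description.

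**Figure D3:**
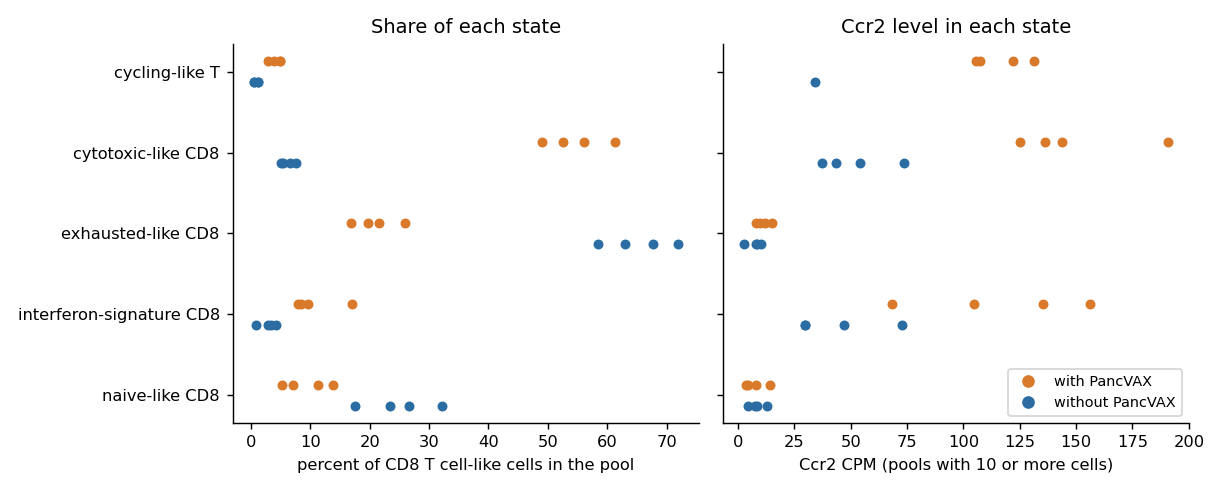
The share of each CD8 T cell-like state in a pool (left, percent) and the Ccr2 level within it (right, CPM); each point is 1 pool, with PancVAX in orange and without it in blue. Cytotoxic-like cells are both more frequent with PancVAX (49.1% to 61.3% against 5.06% to 7.56%) and higher in Ccr2 (125 to 191 CPM against 37.1 to 73.6). The Ccr2 values without PancVAX rest on 49 UMIs in 268 of these cells.

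The antibodies did not move Ccr2 past the threshold in CD8 T cell-like cells, in fits that average over pools with and without PancVAX. The pools differed in opposite directions there. Without PancVAX the pools with antibodies had 11.0 (Anti-PD-1), 9.67 (Anti-CTLA-4), and 13.7 CPM (both), above the 6.81 CPM of Isotype Control. With PancVAX they had 81.9, 82.7, and 85.4 CPM, below the 109 CPM of PancVAX alone, and both orders held in each preparation. Each order was set against 1 pool. That was Isotype Control, with 26 Ccr2 UMIs in 771 cells, or PancVAX alone, flagged below as far from the other pools with PancVAX. Both libraries of a treatment belong to 1 pool, so the preparations do not replicate these orders. The difference in direction between pools with and without PancVAX was not tested. Averaged over both, anti-PD-1 changed Ccr2 by a log2 of 0.01 (SE 0.16, adjusted P = 1.00 by the quasi-likelihood test of edgeR with Benjamini-Hochberg adjustment over all genes) and anti-CTLA-4 by -0.03 (SE 0.16, adjusted P = 1.00), with 4 pools each side. Of all genes tested, 0% and 0.00917% passed the threshold of an adjusted P below 0.05 and an absolute log2 change above 0.5. Of the 5 members tested, 0 passed by edgeR and 0 by DESeq2, and 1 (Ccl12) and 2 (Ccl7 and Ccl8) had an unadjusted P below 0.05. For both antibodies added to PancVAX, each side was 1 pool in both preparations (2 libraries against 2), so P values of that comparison measure the spread between preparations and not between pools. There Ccr2 was 87.8 ± 15.6 against 109 ± 15.9 CPM, a log2 change of -0.33 (SE 0.11, adjusted P = 0.232), where 0.653% of genes passed. No member passed there by edgeR or DESeq2, of 2 tested, and 1 had an unadjusted P below 0.05.

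T cell receptor libraries of the 8 Percoll samples gave clones, cells that shared a TRB V gene and CDR3 within a library, for 4831 CD8 T cell-like cells (270 to 889 per library). Ccr2 was compared within each library between clones of 3 or more cells and clones of 1 cell, a split that the choice of genes had not used. With PancVAX the larger clones had 104, 61.1, 64.8, and 51.0 CPM against 100, 63.1, 75.3, and 93.7 CPM in single-cell clones (PancVAX alone, with Anti-PD-1, with Anti-CTLA-4, and with both). Without PancVAX they had 0, 8.03, 5.75, and 9.53 CPM against 11.8, 14.4, 20.4, and 21.3 CPM (Isotype Control, Anti-PD-1, Anti-CTLA-4, and both), where the 0 UMIs of Isotype Control allow up to 3.84 CPM. These values rest on 0, 12, 11, and 22 Ccr2 UMIs against 7, 14, 17, and 20. Cells of larger clones were also deeper there, at medians of 5997, 5633, 4823.5, and 5220.5 UMIs against 4501, 4709, 3693, and 4582. The part of depth was not tested. Ccr2 was lower in the larger clones in 7 of 8 libraries, by a mean log2(CPM + 10) of -0.52 ± 0.43 (SD, P = 0.0234, exact two-sided permutation test over all 256 sign flips, 1 test). It was -0.24 ± 0.37 over the 4 libraries with PancVAX (P = 0.375) and -0.80 ± 0.30 over the 4 without (the smallest P that an exact permutation test of 4 libraries allows). The cytotoxic-like share moved with clone size without PancVAX, at 0% to 2.80% of cells in larger clones and 9.76% to 20.7% in single-cell clones, and its part in the difference was not tested. The 0% was 0 of 259 cells, which allows a share of up to 1.16%.

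**Figure D4:**
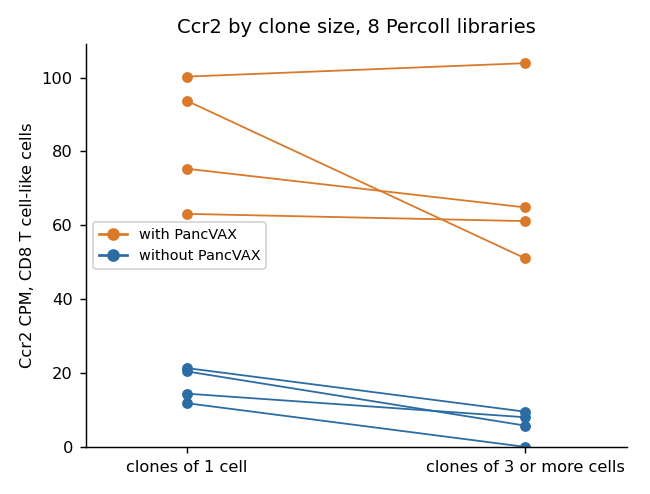
Ccr2 CPM of CD8 T cell-like cells in clones of 1 cell and in clones of 3 or more cells, with a line for each of the 8 Percoll libraries (PancVAX in orange, without it in blue). The line rises only for PancVAX alone, from 100 to 104 CPM, and all 4 lines without PancVAX fall.

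Ccr2 was also higher with PancVAX in CD4 T cell-like cells, but the makeup of this class changed too. The pools had 101 CPM with PancVAX alone, 128 with Anti-PD-1, 123 with Anti-CTLA-4, and 104 with both, against 9.499 in Isotype Control (1 UMI), 80.9 with Anti-PD-1, 20.4 with Anti-CTLA-4, and 40.5 with both. The groups did not overlap, and the log2 change was 1.45 (SE 0.29, adjusted P = 0.00566 by edgeR, adjusted P = 0.00421 by DESeq2). Of all genes tested in this class 3.56% passed. Only 238 cells and 38 UMIs of Ccr2 stood behind the 4 pools without PancVAX. The Anti-PD-1 pool held 21 of these UMIs, in 8 of 64 cells, and 1 cell had 11 of them. Of 2 clusters in the class, a cluster with Cd40lg had 132 CPM of Ccr2 with PancVAX and 77.0 without, and a cluster led by Csf2, Ccl1, and Penk had 4.53 and 2.66 CPM, from 2 UMIs and 1 UMI. The latter made up 8.76% of CD4 T cell-like cells with PancVAX and 33.6% without. Within the Cd40lg cluster alone, a fit added after the data were seen, the log2 change was 0.83 (SE 0.30, adjusted P = 0.195) and Ccr2 did not pass. It also did not pass in whole-tumor libraries alone (1.13, adjusted P = 0.164) or with gates on single marker genes in place of clusters (1.05, adjusted P = 0.0722). Cd8a was found in 7.10% of CD4 T cell-like cells with PancVAX and 3.36% without, while the 10 CD8 T cell markers together, at least 9 of them with a UMI in every pool, summed to 4267 to 4879 CPM with PancVAX and 5262 to 5636 without. The sums of 18 monocyte markers (at least 6 with a UMI) were 1100.4 to 1339 CPM against 708 to 1029, and those of 8 regulatory T cell markers (at least 7 with a UMI) 1842 to 2138 against 2585 to 2849.6. The part of these markers in the Ccr2 difference was not tested.

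No change of Ccr2 with PancVAX was detected in 5 other classes, and gamma-delta T-like and plasmacytoid dendritic-like cells were not tested. In monocyte-like cells Ccr2 was 379, 405, 399, and 449 CPM with PancVAX (alone, with Anti-PD-1, with Anti-CTLA-4, and with both) and 558, 513, 428, and 425 CPM without. These ranges overlapped, and the log2 change was -0.23 (SE 0.10, unadjusted P = 0.0378, adjusted P = 0.584 by edgeR). In regulatory T-like cells it was 0.30 (SE 0.25, adjusted P = 0.770), in NK-like cells -0.16 (SE 0.23, adjusted P = 0.887), in dendritic cells 0.55 (SE 0.27, adjusted P = 0.665), and in macrophage-like cells -0.02 (SE 0.15, adjusted P = 0.978). The shares of all genes that passed were 0.334% in regulatory T-like, 0.0267% in NK-like, 0.117% in dendritic, 0.0386% in monocyte-like, and 0% in macrophage-like cells, and no member passed there by edgeR or DESeq2. Of the members tested in these classes, 0 of 1 in regulatory T-like, 0 of 1 in NK-like, 0 of 3 in dendritic, 2 of 5 in monocyte-like, and 3 of 5 in macrophage-like cells had an unadjusted P below 0.05. The CD4 change exceeded that in NK-like cells by 1.63 (SE 0.49) and that in monocyte-like cells by 1.83 (SE 0.51) on the log2 scale (P = 0.0286 each, two-sided exact permutation of the pools, 70 splits). With 7 such differences tested, chosen after the values were seen, the adjusted P was 0.1 for each.

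The share of monocyte-like cells among monocyte-like and macrophage-like cells was 17.4%, 9.82%, 14.9%, and 15.9% with PancVAX (alone, with Anti-PD-1, with Anti-CTLA-4, and with both) and 13.5%, 12.4%, 15.3%, and 10.0% without. The means were 14.5% ± 3.30 and 12.8% ± 2.21 (n = 4 each), and the groups overlapped (P = 0.457, two-sided exact permutation, 70 splits). C1qa was found in 61.6% of monocyte-like cells, so the classes behind this share were not sharply apart.

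Of the ligands in macrophage-like cells, Ccl2, Ccl7, and Ccl8 were higher with PancVAX before adjustment and did not pass after it. Ccl7 was 232 CPM with PancVAX alone, 330 with Anti-PD-1, 586 with Anti-CTLA-4, and 230 with both, against 202 in Isotype Control, 188 with Anti-PD-1, 173 with Anti-CTLA-4, and 197 with both. All 4 pools with PancVAX lay above all 4 without, and the log2 difference was 0.78 (SE 0.22, unadjusted P = 0.00453, adjusted P = 0.311 by edgeR). Ccl2 was 191, 222, 353, and 194 CPM against 179, 164, 158, and 174 CPM in the same order, which also did not overlap, with a log2 difference of 0.45 (SE 0.14, adjusted P = 0.327). Ccl8 was 1096, 1254, 1872, and 1250 CPM against 704, 965, 686, and 1286 CPM, which overlapped through the pool of both antibodies, with a log2 difference of 0.58 (SE 0.16, adjusted P = 0.311). Ccl12 was 252 ± 71.7 against 231 ± 22.4 CPM, a log2 difference of 0.06 (SE 0.13, adjusted P = 0.915).

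These ligands passed in some other fits, and a single pool moved their size. The share of all genes that passed in those fits is not given here. In a fit of all 16 libraries with a replicate block by preparation, which counts both libraries of a pool as separate samples (8 against 8 from 4 pools a side), Ccl7 (0.78, adjusted P = 0.0275 by edgeR) and Ccl8 (0.56, adjusted P = 0.0236) passed, and Ccl2 had an adjusted P of 0.0630. With no filter on low counts Ccl7 (0.76, adjusted P = 0.000757) and Ccl8 (0.56, adjusted P = 0.00109) also passed. Without the pool of PancVAX + Anti-CTLA-4, the log2 difference of Ccl7 was 0.37 (adjusted P = 0.553), that of Ccl2 0.21 (adjusted P = 0.570), and that of Ccl8 0.35 (adjusted P = 0.557). Without the pool of PancVAX alone, Ccl7 (0.96, adjusted P = 0.0222) and Ccl2 (0.57, adjusted P = 0.0436) passed. The Fcrl5 cluster of macrophage-like cells had 541 CPM of Ccl7 with PancVAX and 231 without, the Npl cluster 139 and 98.8. In the cluster led by Pclaf and Birc5, genes of dividing cells, Ccl7 was 147 CPM with PancVAX and 241 without. Monocyte markers summed to 881 to 1218 CPM in macrophage-like cells with PancVAX and 770 to 909 without, and their part was not tested.

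**Figure D5:**
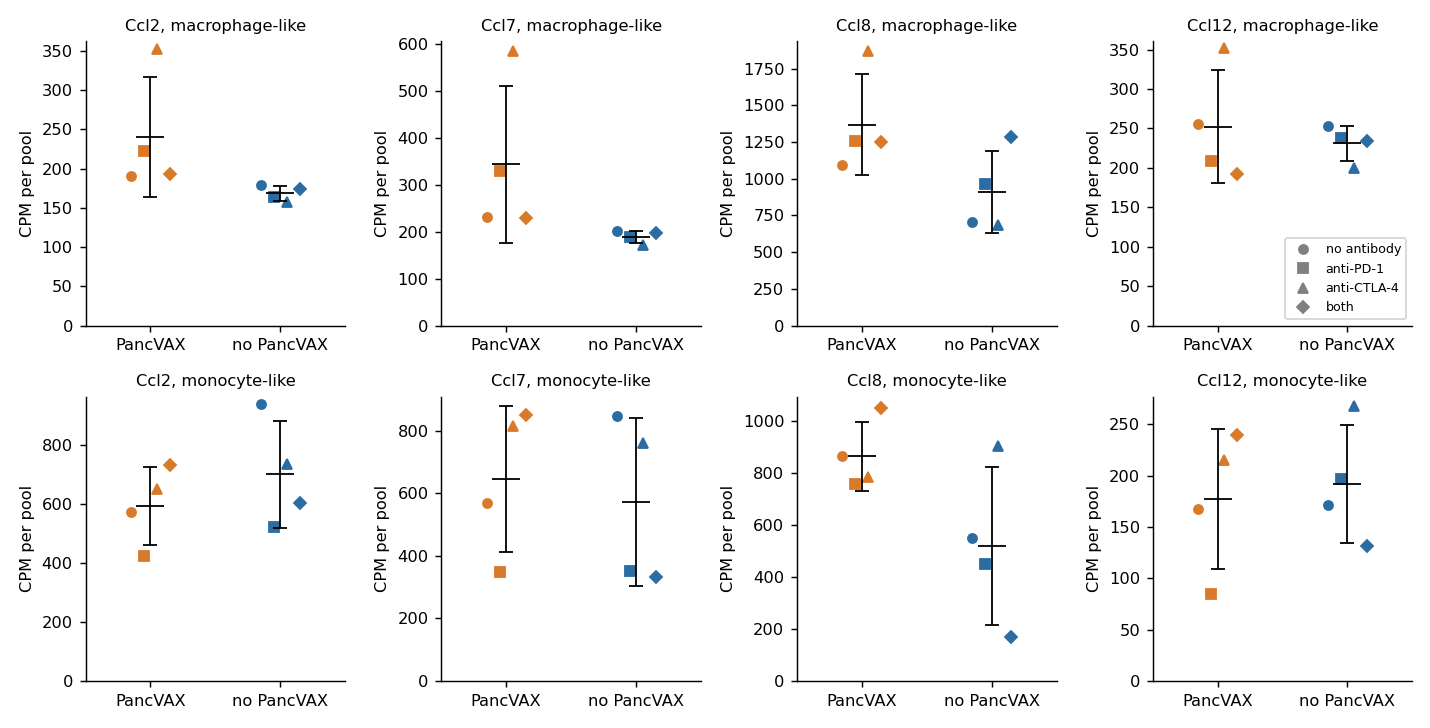
CPM of the 4 ligands in macrophage-like (top) and monocyte-like cells (bottom); each symbol is 1 pool, its shape gives the antibodies, and bars are the mean ± SD of 4 pools. In macrophage-like cells the pool of PancVAX + Anti-CTLA-4 is the highest for each ligand, at 353, 586, 1872, and 352 CPM, and in monocyte-like cells the pools with and without PancVAX overlap.

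In monocyte-like cells Ccl8 was 867, 760, 783, and 1051 CPM with PancVAX (alone, with Anti-PD-1, with Anti-CTLA-4, and with both) and 548, 452, 904, and 168 CPM without. The log2 difference was 0.83 (SE 0.27, unadjusted P = 0.00665, adjusted P = 0.377 by edgeR), and without the pool of Anti-PD-1 + Anti-CTLA-4 it was 0.44. With gates in place of clusters it turned to -0.22. Ccl2 (-0.23), Ccl7 (0.22), and Ccl12 (-0.13) differed by less than 2 SE (SE 0.14, 0.20, and 0.19). Ccl7 was lower with anti-PD-1 in this class, at 471 ± 254 against 748 ± 125 CPM, a log2 difference of -0.70 (SE 0.20, unadjusted P = 0.00298, adjusted P = 0.412). The pools with anti-PD-1 had 351 CPM alone, 331 with Anti-CTLA-4, 349 with PancVAX, and 851 CPM with all 3, above the 4 pools without anti-PD-1 (568 to 847 CPM). Without the pool of all 3 agents the log2 difference was -1.09 (adjusted P = 0.000286 by edgeR). That fit leaves out the anti-PD-1 pool that goes against a fall, so it is no support for one. The share of all genes that passed in it is not given here. In the main fits, of all pools, 0.0258% of the genes tested passed with anti-PD-1 and 0% with anti-CTLA-4. No member passed for either antibody in these fits by edgeR or DESeq2, and 2 and 1 of 5 had an unadjusted P below 0.05.

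The antibodies moved no ligand past the threshold in macrophage-like cells, where 0% of genes passed for anti-PD-1 and 0% for anti-CTLA-4. Of the 5 members, 1 (Ccr2, -0.43, SE 0.15, adjusted P = 0.886) had an unadjusted P below 0.05 with anti-PD-1 and 0 with anti-CTLA-4, and none passed by edgeR or DESeq2. With both antibodies added to PancVAX, 1.49% of genes passed in macrophage-like and 0.031% in monocyte-like cells, and no member by either tool, while 1 of 5 in each class had an unadjusted P below 0.05. These were Ccl12 in macrophage-like cells (-0.39, SE 0.14, adjusted P = 0.234) and Ccl7 in monocyte-like cells (0.71, SE 0.24, adjusted P = 0.622), from 1 pool against 1 in both preparations.

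In fibroblast-like cells, of which the pools held only 13 to 78, Ccl2 was 465, 325, 285, and 298 CPM with PancVAX and 574, 321, 460, and 520 CPM without (alone or Isotype Control, with Anti-PD-1, with Anti-CTLA-4, and with both). The log2 difference was -0.45 (SE 0.28, adjusted P = 1.00 by edgeR). Ccl7 (-0.16, SE 0.52) and Ccl8 (-0.71, SE 0.47) did not pass either. For the vaccine and for either antibody 0% of genes passed, and of the 3 members tested 0 passed by edgeR or DESeq2 and 0 had an unadjusted P below 0.05.

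In tumor or epithelial-like cells Ccl7 was 8.88, 41.3, 52.4, and 21.6 CPM with PancVAX and 3.68, 13.9, 4.93, and 131 CPM without, and 2 cells held 50% of the UMIs of the last pool. The log2 difference was 0.43 (SE 0.66, adjusted P = 0.783 by edgeR). In whole-tumor libraries alone Ccl7 (3.12, adjusted P = 0.0134) and Ccl2 (2.03, adjusted P = 0.0344) passed, in a fit whose share of all genes is not given here. After Percoll alone they differed by -1.23 (adjusted P = 0.601) and -0.28 (adjusted P = 0.928). Macrophage markers summed to 2987 to 4752 CPM in this class with PancVAX and 2546 to 3392 without, and their part was not tested. Of all genes 0% passed with PancVAX, 0% with anti-PD-1, and 0% with anti-CTLA-4 by edgeR, while 172, 0, and 0 genes passed by DESeq2. Of the 4 members tested 0 passed by edgeR or DESeq2, and 0, 1 (Ccl7), and 1 (Ccl7) had an unadjusted P below 0.05. In the Ccn1 cluster 0% of genes passed with PancVAX by edgeR, in endothelial-like cells 0%, in a cluster led by Ecrg4 and Lum 0.0628%, in neutrophil-like cells 0.231%, and in B cell-like cells 0.0271%. By DESeq2 39, 8, 8, 15, and 9 genes passed, in the same order. No member passed in these classes by edgeR or DESeq2, and 1 of 4, 0 of 2, 1 of 1, 0 of 4, and 0 of 1 had an unadjusted P below 0.05. The single genes were Ccl8 in the Ccn1 cluster (0.72, SE 0.28, adjusted P = 0.318) and Ccl8 in the Lum cluster (2.01, SE 0.65, adjusted P = 0.335, and -1.25 with no upper limits on UMIs and genes).

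Ccl2 differed between the preparations. In macrophage-like cells Ccl2 was 240 ± 85.4 CPM after Percoll and 181 ± 59.3 in whole tumors (n = 8 libraries each), a log2 difference of 0.47 (SE 0.06, adjusted P = 1.26e-06 by edgeR with treatment as a block), just under the limit of 0.5. Ccl7 differed by 0.28 (SE 0.07, adjusted P = 0.00188) and Ccr2 by -0.36 (SE 0.10, adjusted P = 0.00962), and Ccl8 and Ccl12 by -0.09 and -0.06 (SE 0.06 and 0.07). Of all genes 5.1% passed in this comparison. Of the 5 members 0 passed by edgeR or DESeq2. Ccl2, Ccl7, and Ccr2, the 3 with an unadjusted P below 0.05, stayed under the limit on the log2 difference. In tumor or epithelial-like cells 6.13% of genes passed and 0 of 4 members by edgeR or DESeq2, with 1 (Ccl8, -0.86, SE 0.41) at an unadjusted P below 0.05. Preparation and sequencing batch cannot be told apart.

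Other genes of chemokine biology were taken from 3 lists. Over all comparisons 0.7% of the tests of all genes passed. Of 18 other trafficking receptors of leukocytes, 1 rose and 2 fell in 186 tests over 28 comparisons, of 11 other CC chemokines 9 rose and 2 fell in 146 tests, and of 22 genes of ligand scavenging, signaling, and upstream induction 10 rose and 2 fell in 392 tests. These are 1.61%, 7.53%, and 3.06% of the tests of each list. Without the 2 comparisons of preparations, where more genes passed, they were 1.74%, 5.93%, and 1.94%, against 0.235% for all genes, and the tests share genes and pools. The receptor calls were all in CD4 T cell-like cells with PancVAX. There Ccr7, the receptor for entry into lymph nodes, fell by 1.31 on the log2 scale (SE 0.25, adjusted P = 0.00421 by edgeR), Ccr8 fell by 0.87 (SE 0.17, adjusted P = 0.00474), and S1pr1, which guides exit from tissue, rose by 1.05 (SE 0.19, adjusted P = 0.00276). Within the Cd40lg cluster alone Ccr7 fell by 1.11 (adjusted P = 0.0171), while Ccr8 (0.14, adjusted P = 0.867) and S1pr1 (0.44, adjusted P = 0.377) did not pass.

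Ccl5, a chemokine of T cells, made up 5 of the 9 calls of higher CC chemokines. With PancVAX it rose in CD4 T cell-like cells (1.78, SE 0.16, adjusted P = 2.41e-06 by edgeR, and 1.41 in the Cd40lg cluster), in neutrophil-like cells (1.75, adjusted P = 0.00693), and in the Lum cluster (3.47, adjusted P = 0.0492). In monocyte-like cells it rose with anti-PD-1 (1.52, adjusted P = 0.0116). It passed with both antibodies added to PancVAX too (2.13, adjusted P = 0.0441), from 1 pool against 1. The part of free RNA of T cells in the other classes was not tested. Mmp12, a macrophage elastase that can cleave chemokines, rose in monocyte-like cells with PancVAX (1.18, SE 0.15, adjusted P = 0.00153) and with anti-PD-1 (0.90, SE 0.15, adjusted P = 0.0449). In macrophage-like cells with PancVAX, 0 of 10 receptors, 0 of 6 CC chemokines, and 0 of 16 signaling genes passed by edgeR. Their median log2 differences were 0.10, 0.12, and 0.14, beside 0.00 over all genes tested. After Percoll, Tnf (1.45, SE 0.06), Nfkbia (1.07, SE 0.06), Ccl4 (0.85, SE 0.05), and Ccl3 (0.79, SE 0.07), genes that macrophages induce when stimulated, rose in macrophage-like cells beside Mmp12 (0.58, SE 0.11), with adjusted P values of 9.47e-18 to 0.000229.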

How the data were processed

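Single-cell RNA was captured with a 10x 5′ kit from whole and Percoll-enriched tumors, and T cell receptors from the Percoll samples. The authors made UMI count matrices with Cell Ranger 4.0.0 on mm10 per the labels, and analyzed them in Seurat; the deposited counts were not normalized, and the deposited contig tables gave TRB chains with UMI counts.

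Here cells with 200 to 3000 genes, 1000 to 10000 UMIs, under 10% mitochondrial UMIs, and no hemoglobin were kept, after the filters of the study. Variable genes (2000) were picked with scanpy 1.11.5, and the members were left out of the clustering. Cell-cycle scores were regressed out, and a Harmony-type correction for preparation was applied. Cells were then clustered by Louvain at 0.6 with igraph 0.11.9 (25 principal components, 20 neighbors). T and NK cells, and phagocytes with dendritic cells, were clustered again as sets. A cluster, unless very small, was named from at least 3 raised markers of a class. Clusters that markers of another class led or stood out in were not named. Scrublet marked fewer than 0.5% of cells, which was taken as not having worked, so no doublets were removed, and some named clusters hold cells with markers of several classes. UMIs were summed by class and pool (10 or more cells) and tested with the quasi-likelihood test of edgeR 4.0.16 in R 4.3.3 (TMM, filter on low counts, a term for the vaccine and each antibody), adjusted over all genes by Benjamini-Hochberg; DESeq2 1.42.0 was an alternative. This replaces the cell-level model of the study, since cells are not replicates. Library pairs were tested with preparation, or treatment, as a block, and fits of libraries count both libraries of a pool as separate samples. Clone and share tests were exact permutations. The steps were tested on simulated data.

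The named genes were the 5 members, the 5 genes closest to each by Pearson correlation (genes with 100 or more UMIs), and those past the threshold in 3 lists. Some genes that this rule names are not reported here. Members and lists were chosen with earlier results of these data known. Promoters came from RefSeq tables. The UMI counts limit precision, and intervals and limits from counts cover counting error only.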

Additional observations from a re-analysis of the deposited data

Results flagged for a closer look

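Of 66 groups of 4 pools, in which chance would set about 1 in 20 apart, 6 held a pool flagged as far from the other 3. Ccr2 in CD8 T cell-like cells was 108.6 CPM with PancVAX alone, and the next pool with PancVAX had 85.4 CPM. Ccl7 in tumor or epithelial-like cells was 131.1 CPM with Anti-PD-1 + Anti-CTLA-4, and the next pool without PancVAX had 13.9 CPM; 2 of its 510 cells held 50% of the 262 UMIs. Ccl2 in endothelial-like cells was 377 CPM with PancVAX + Anti-PD-1 (104 UMIs in 16 of 62 cells), and the next pool had 37.2 CPM. Ccl7 in endothelial-like cells was 221.8 CPM with PancVAX + Anti-CTLA-4, from 39 UMIs in 1 of 34 cells, and the next pool had 29.8 CPM. In Isotype Control it was 19.5 CPM from 3 UMIs, with 0 UMIs in the other 3 pools without PancVAX, which allow up to 20.2 to 27.2 CPM. This pool was flagged but is therefore not shown to lie apart. Ccl7 in the Ifit3 cluster was 515.2 CPM in Isotype Control (126 UMIs in 24 of 49 cells), and the next pool without PancVAX had 275 CPM.

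The change of Ccr2 with PancVAX differed between classes before adjustment. It was higher in CD4 T cell-like cells than in NK-like cells by 1.63 and than in monocyte-like cells by 1.83 on the log2 scale, each with P = 0.0286 by exact permutation and 0.1 after adjustment over 7 differences.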

How the results depend on the processing

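Over all alternatives, 524 counts and summaries stayed within the limits set, 28 moved, and 1 reversed; among single genes 433 kept direction and call, 42 reversed, 17 passed anew, and 3 no longer passed. For counts of members called, 0 in the main fit and 0 in an alternative counted as within the limits. Among the main fits tested, a member was called only in CD4 T cell-like cells with PancVAX. The first of these totals therefore does not measure how stable the values were. Where results changed, the cause was not tested.

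Counts of members called changed as follows. The share of all genes that passed in each of these fits is not given here, so the counts cannot be judged against it. That share differed between fits. In CD4 T cell-like cells 195 of 5477 genes passed in the main fit and 343 of 14799 with no filter on low counts. With no filter on low counts, 2 were called with PancVAX in macrophage-like cells, and 1 each with PancVAX in monocyte-like, tumor or epithelial-like, and endothelial-like cells and the Lum cluster, with anti-PD-1 in monocyte-like and tumor or epithelial-like cells, with anti-CTLA-4 in tumor or epithelial-like cells, for both antibodies on PancVAX in monocyte-like cells, and for Percoll in tumor or epithelial-like cells. In whole tumors alone, 2 were called with PancVAX in tumor or epithelial-like cells, 1 with anti-PD-1 in monocyte-like cells, and 0 in CD4 T cell-like cells. With gates in place of clusters, or the Cd40lg cluster alone, 0 were called in CD4 T cell-like cells. With no upper limits 1 was called with anti-PD-1 in monocyte-like cells, and the shares of UMIs were 31.5% (Ccr2, monocyte-like), 45.7% (Ccl2), 51.8% (Ccl7), 78.2% (Ccl8), and 72.1% (Ccl12, macrophage-like). Shares that moved by over 1.5 times were those of fibroblast-like cells (17.5% of Ccl2 and 18.8% of Ccl7, from 2.72% and 2.76%), of monocyte-like cells (13.9% and 14.5%, from 30.2% and 24.5%), of tumor or epithelial-like cells (Ccr2 4.12% from 0.642%, Ccl2 9.69% from 1.502%, Ccl7 6.35% from 3.41%, Ccl8 5.75% from 1.46%, and Ccl12 5.77% from 1.25%), and of macrophage-like cells in Ccr2 (23.4% from 14.7%), beside those of classes with small shares. Leaving out 1 pool gave 0 to 2 calls with PancVAX in macrophage-like cells and 0 to 2 with anti-PD-1 in monocyte-like cells, and leaving out 1 library 0 to 1 for Percoll in macrophage-like cells.

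The libraries share preparations, and each preparation was a batch, so preparation was the replicate block. With that block 2 members were called with PancVAX in macrophage-like cells (Ccl7 and Ccl8), in a fit that counts both libraries of a pool as separate samples, and it changed no other call of a member. The share of all genes that passed in that fit is not given here. Without treatment as a term (no replicate block) Ccl2 had an adjusted P of 0.0718 for Percoll in macrophage-like cells.

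These log2 differences changed sign, among them Ccl8 in monocyte-like cells and the Lum cluster, at 0.83 and 2.01 in the report. With PancVAX, Ccr2 was 0.0326 in macrophage-like cells at a mitochondrial limit of 5% and -0.0134 in dendritic cells with no upper limits. Ccl2 was 0.0293 in fibroblast-like cells by gates, Ccl7 -1.23 in tumor or epithelial-like cells after Percoll, and Ccl8 -0.22 in monocyte-like cells by gates and -1.25 in the Lum cluster with no upper limits. Ccl12 was -0.0296 in macrophage-like cells in whole tumors and -0.0263 by gates, and 0.0505 in monocyte-like cells in whole tumors. In CD8 T cell-like cells Ccr2 was -0.0176 with the replicate block, -0.0464 after Percoll, and -0.0864 by gates for anti-PD-1, and 0.0282 by DESeq2, 0.0449 after Percoll, and 0.0286 by gates for anti-CTLA-4. The monocyte-like share by gates differed by -0.661 percentage points. Leaving out each pool moved Ccr2 with PancVAX from -0.0622 to 0.70 in regulatory T-like, -0.45 to 0.24 in NK-like, and -0.26 to 0.10 in macrophage-like cells. It moved Ccl7 from -0.11 to 0.47 in monocyte-like, -0.69 to 0.42 in fibroblast-like, and -0.58 to 1.74 in tumor or epithelial-like cells. It moved Ccl8 from -0.13 to 1.00 in tumor or epithelial-like cells, and Ccl12 from -0.14 to 0.16 in macrophage-like and -0.37 to 0.10 in monocyte-like cells. In CD8 T cell-like cells it moved Ccr2 from -0.0892 to 0.29 for anti-PD-1 and -0.17 to 0.25 for anti-CTLA-4.

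In CD4 T cell-like cells 195 genes were called, against 106 by DESeq2, 343 with no filter, 98 in whole tumors, 45 after Percoll, 81 by gates, 79 in the Cd40lg cluster, and 87 to 214 without each pool. The clone difference was -1.03 at a pseudocount of 1 CPM and -0.60 to -0.43 without each library. The Cd40lg cluster alone, the tumor class without the Fosl1 cluster, and levels with no upper limits were chosen after seeing the data. Doublet removal was not run, no Sox9 stromal-like cluster was found, and Percoll against whole tumor in fibroblast-like cells could not be fitted, with 8 libraries of 10 cells and no residual degrees of freedom. Few cells limit the ligand values outside phagocytes.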
